A study of Mus musculus with 24 samples.

Results

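The broadest H3K4me1 domains of wild-type (WT) mouse blood progenitors are 781 autosomal regions, the widest 2% of the 39058 that carried the mark in both WT libraries. They were found by merging the intervals of the 2 WT lists where they overlapped or touched, which gave 55861 autosomal regions, and by ranking the shared ones on merged width. The domains were thus chosen by width and WT H3K4me1, so every H3K4me1 value below is a description with no test, the differences from KO included. The domains ran from 25999 to 194999 bp with a median of 32999 bp, while the other 38277 shared regions had a median of 4599 bp. The narrowest width was held by 16 domains inside the threshold and by 4 regions just outside it, and the next width down was 25799 bp. Together the domains held 29.8 Mb, or 11.6% of the bases in shared regions.

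H3K4me1 is monomethylation of lysine 4 of histone H3, a mark of enhancers that Kmt2c and Kmt2d, the MLL3 and MLL4 methyltransferases, deposit. Utx, encoded by Kdm6a, is a subunit of their complexes and also a demethylase of H3K27. Long unbroken stretches of the mark are known from genes that define a cell's identity, where many enhancers lie side by side. PU.1, encoded by Spi1, is an ETS factor that binds DNA around a GGAA core and directs myeloid and lymphoid development. Smarca4 encodes Brg1, the ATPase of the BAF remodelling complex, and Chd4 encodes an ATPase of the NuRD complex.

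The cells were lineage-negative (Lin-) bone marrow progenitors of C57BL/6 mice, a mixed population enriched by removing cells with markers of mature lineages. ChIP-seq compared Utx WT with Utx knockout (KO) cells, in 2 against 2 libraries for H3K4me1 and 3 against 3 for PU.1. ATAC-seq, which maps open chromatin, used Cas9-expressing cells with an empty guide RNA (gRNA) vector or a gRNA against Smarca4, in Utx WT and Utx KO, with 2 libraries for each of the 4 groups. A separate Chd4 set compared a gRNA against Chd4 with the empty vector in Utx WT, Cas9 cells, again 2 against 2. The labels name the genotypes without the allele, its Cre driver, age or sex. Only the Chd4 set's labels give culture times, 7 days in semi-solid medium, 5 days in liquid culture and analysis 6 days after transduction, in a text written for editing of Brg1. The cells of that set were thus cultured, and no culture is given for the ChIP cells. No label ties a replicate to its own animal or culture, so each p-value measures only the spread between these samples.

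The 4 H3K4me1 lists held 42821 to 53534 autosomal islands, as the intervals of a broad-peak caller are called, the 6 PU.1 lists 134140 to 166141 and the 12 ATAC lists 24268 to 49704. H3K4me1 replicate 2 of WT stood apart. Its islands held 14.0 M reads, if the number deposited with each island is a read count, against 6.85 M in WT replicate 1 and 7.67 and 8.50 M in the KO libraries, and they covered 280 Mb against 199 Mb in WT replicate 1. No lists carry library depth, and peak number moves with it. Among markers of Lin- progenitors, 7 of 7 overlapped a shared WT region and 4 of 7 (Kit, Meis1, Runx1 and Tal1) overlapped a domain. None of 4 B cell, 3 T cell, 4 stromal and endothelial and 3 neuronal markers overlapped a domain, although 4, 2, 4 and 2 of them overlapped some shared region. The longer stromal and endothelial list described further on did reach the domains, at Runx2 and Pecam1.

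Promoter sequences are shown for 5 domain genes, because a domain is read here against PU.1 binding and these starts lay under PU.1 islands in 6 of 6 libraries. Each is the 250 bases before the RefSeq start in GRCm38.p6, the same build as the mm10 of the lists, 5′ to 3′ on the gene's strand. Capitals mark the ETS core GGAA or, read on the other strand, TTCC. Adgrg3, at chr8:95017442-95017691 on the plus strand, encodes an adhesion G protein-coupled receptor. Mbnl1, at chr3:60500929-60501178 on the plus strand, encodes a splicing regulator, and Gng12, at chr6:66896641-66896890 on the plus strand, a G protein gamma subunit. Runx1, at chr16:92697330-92697579 on the minus strand, and Tal1, at chr4:115056176-115056425 on the plus strand, encode transcription factors of blood stem and progenitor cells.
Adgrg3: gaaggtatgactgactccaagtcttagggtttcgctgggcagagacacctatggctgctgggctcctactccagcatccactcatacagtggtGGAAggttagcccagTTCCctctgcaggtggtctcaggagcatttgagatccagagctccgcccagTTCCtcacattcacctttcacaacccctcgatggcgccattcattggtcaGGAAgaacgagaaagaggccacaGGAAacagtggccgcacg
Mbnl1: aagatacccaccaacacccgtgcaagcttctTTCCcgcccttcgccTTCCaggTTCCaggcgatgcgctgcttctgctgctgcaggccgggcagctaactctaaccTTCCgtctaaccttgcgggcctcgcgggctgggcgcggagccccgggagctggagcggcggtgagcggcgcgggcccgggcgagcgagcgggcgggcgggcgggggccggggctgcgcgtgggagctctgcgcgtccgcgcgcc
Gng12: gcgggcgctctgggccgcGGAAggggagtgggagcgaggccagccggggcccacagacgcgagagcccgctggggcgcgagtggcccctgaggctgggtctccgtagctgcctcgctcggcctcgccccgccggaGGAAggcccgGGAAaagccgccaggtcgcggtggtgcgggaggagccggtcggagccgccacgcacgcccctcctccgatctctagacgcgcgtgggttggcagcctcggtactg
Runx1: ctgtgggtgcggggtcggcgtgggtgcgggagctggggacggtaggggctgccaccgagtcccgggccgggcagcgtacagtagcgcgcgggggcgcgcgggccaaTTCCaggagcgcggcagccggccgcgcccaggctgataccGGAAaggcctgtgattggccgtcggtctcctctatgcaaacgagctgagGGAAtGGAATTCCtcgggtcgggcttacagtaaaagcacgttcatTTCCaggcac
Tal1: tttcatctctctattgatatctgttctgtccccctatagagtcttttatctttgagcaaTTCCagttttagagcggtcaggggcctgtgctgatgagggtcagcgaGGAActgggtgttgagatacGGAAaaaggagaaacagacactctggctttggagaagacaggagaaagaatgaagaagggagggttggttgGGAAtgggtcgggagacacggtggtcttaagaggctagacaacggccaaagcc
The 5 promoters were picked after their values were seen, from genes of the 8 widest domains and of the stem cell list with at least 3 cores. The GGAA core does not set promoters in domains apart, while a longer site was more frequent in them, a difference not tested. GGAA on either strand stood in 92.4% of the 658 promoters whose start lay in a domain and in 93.0% of all 20085 promoters with windows of the same length. GAGGAAGT, a longer site that PU.1 prefers and that contains the core, stood on either strand in 30 of 658 (4.56%) and in 454 of 20085 (2.26%), and in 0 of the 5 shown. PU.1 islands overlapped these windows more often inside domains, in 82.2%, 85.1% and 87.2% of the 658 in WT and 85.0%, 81.2% and 84.2% in KO, against 51.3% to 53.9% of the other 19427 over the same 6 libraries. The sets also differ in the mark itself. H3K4me1 islands of WT covered 81.0% and 98.5% of the 658 but 38.4% and 51.4% of the others. Promoters in other marked regions were not set beside them.

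The widest domain lay inside Etv6, an ETS repressor that keeps adult blood stem cells alive. It spanned 194999 bp at chr6:134036801-134231799. WT replicate 1 split it into 11 islands covering 92.9%, while WT replicate 2 covered 99.9% of it in 1 island of 194799 bp. The next were at Adgrg1, Adgrg3 and Drc7 (chr8:94944801-95068199, 123399 bp), Cmip (chr8:117258201-117375599, 117399 bp), Mbnl1 (chr3:60494801-60611799, 116999 bp), Ankrd11, a chromatin regulator (chr8:122896401-123012399, 115999 bp), and Gng12 (chr6:66888401-66993399, 104999 bp). Those 6 were the domains over 100 kb, and 110 exceeded 50 kb. Gse1 (95199 bp) and the neighbours Diras2 and Syk, a tyrosine kinase of immune receptor signalling (93199 bp), completed the 8 widest.

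Most domains lay on genes. Of 781 domains 734 (94.0%) overlapped a protein-coding gene, against 86.5% of the next widest 8% of regions and 69.7% of all others, and a wide region meets a gene more readily. A listed gene start lay in 392 (50.2%), against 36.7% of the next 8%. In all 921 of 20665 autosomal protein-coding genes (4.46%) overlapped a domain. Their median length was 46172 bp, against 16898.5 bp for other genes. Domains clustered along some genes: 68 genes met more than 1 domain, and Arid1b, Cux1, Gse1, Runx1, Sgms1 and Ubac2 met 3 each. Of 762 neighbouring pairs on a chromosome 46 lay within 10 kb of each other. Chromosome 11 held the most domains, 74, and chromosome 18 the fewest, 21.

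Genes of blood progenitors were common among them. Of 20 stem cell genes 9 overlapped a domain, namely Etv6, Runx1, Erg, Msi2, Meis1, Kit, Tal1, Hoxa9 and Hoxa10. So did 5 of 15 ETS family genes (Etv6, Fli1, Elf1, Erg and Spi1), 6 of 18 erythroid genes (Bcl11a, Zfpm1, Nfe2, Epb41, Ank1 and Car2) and 5 of 16 megakaryocyte genes (Fli1, Gp9, Cd9, Gfi1b and Itgb3). Monocyte and macrophage genes gave 4 of 16 (Zeb2, Irf8, Ccr2 and Itgam), chromatin regulators 4 of 19, signalling and growth genes 5 of 20, granulocyte genes 2 of 16, stromal and endothelial genes 2 of 14 (Runx2 and Pecam1) and mast cell genes 1 of 12. The lists of 16 B cell, 16 T and NK cell, 14 neuronal and 13 housekeeping genes gave 0 each. The share over all protein-coding genes is the 4.46% above, and long genes are met more often. These lists were chosen with earlier results of the data known and received no test.

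In Utx KO the domains were thinner in H3K4me1 but seldom gone. Islands covered 86.3% and 98.5% of domain bases in the 2 WT libraries and 73.0% and 83.6% in the 2 KO libraries. Both KO values lay under both WT values. The means were 92.4% ± 8.63 (SD, n = 2) and 78.3% ± 7.50 (SD, n = 2), a difference of -14.1 points, which was -7.99 without WT replicate 2 and -8.80 without KO replicate 1. Since merged WT islands set the edges of each domain, WT cover is high by construction.

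**Figure D1:**
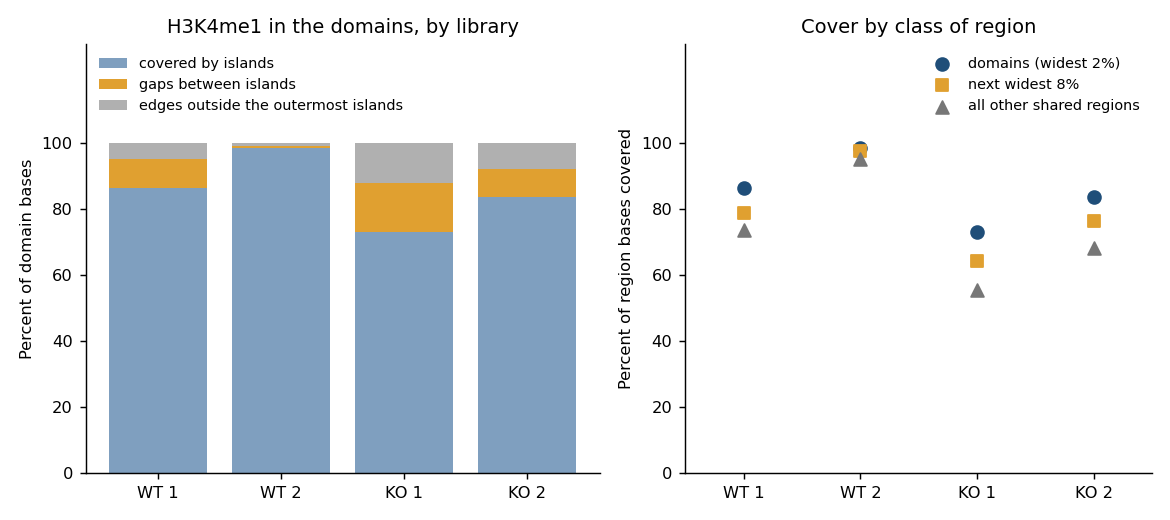
Left, the percent of domain bases under H3K4me1 islands, in gaps between islands and at the edges, in each of the 4 libraries (bars, 781 domains). Right, the percent of bases covered in the domains, in the next widest 8% and in all other shared regions (points, 1 per library). Cover of the domains was 86.3% and 98.5% in WT and 73.0% and 83.6% in KO, above the other regions in each library.

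Choosing the domains without 1 of the WT libraries took part of that construction away, and the result then depended on which library was held out. On the 1012 widest islands of WT replicate 1, WT replicate 2 covered 98.3%, above the 81.1% and 90.3% of KO. On the 1071 widest of WT replicate 2, WT replicate 1 covered 85.0%, above the 73.9% of KO replicate 1 and next to the 84.4% of KO replicate 2. When the same rule was run on the KO libraries it gave 679 regions, where WT covered 83.7% and 94.1% and KO 88.3% and 96.7%. The mean difference there was 3.64 points in the other direction. Of those 679, 62.6% overlapped a WT domain, and 53.6% of WT domains overlapped one of them.

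In group means, which include WT replicate 2, the loss of cover was about equal at the edges and inside, 7.06 and 7.04 points. The uncovered edge, outside the outermost islands, made up 4.97% and 0.906% of domain bases in WT and 12.2% and 7.77% in KO, with no overlap. Each domain edge is the end of a WT island, so the edge measure is low in WT by construction. The same holds for gaps between islands. A domain was merged from WT islands that overlapped or touched, so a gap in either WT library is filled by the other. Gaps between islands made up 8.75% and 0.601% in WT and 14.8% and 8.63% in KO, where KO replicate 2 lay just under WT replicate 1. Island number did not separate the genotypes. WT replicate 1 had 2.94 islands per domain and WT replicate 2 had 1.23, against 2.94 and 2.39 in KO. Without WT replicate 2 the difference turned from 0.579 to -0.277 islands per domain. The median of the widest island in a domain was 18399 and 31599 bp in WT and 15199 and 21199 bp in KO. A single island over at least 90% of the domain held 12.2% and 79.5% of domains in WT and 8.19% and 17.2% in KO. Both of these measures overlapped between the genotypes, as WT replicate 1 was close to the KO libraries in each.

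Domain by domain, a domain is called narrowed where both KO libraries covered less of it than both WT libraries, with no test behind the call. Of 781 domains 362 (46.4%) were narrowed, against 38.2% of the other shared regions and 41.9% of the next widest 8%. More cover in both KO libraries than in both WT libraries, called wider, was seen in 2, against 1.53% of the others. Cover is counted inside the WT edges, so neither call sees growth past them. Islands of KO replicate 1 reached past an edge of 260 domains and those of KO replicate 2 of 415. Without WT replicate 2, the library that stands apart, 368 were narrowed and 172 wider. Narrowed domains numbered 706 without WT replicate 1 and 584 without KO replicate 2, with 4 and 7 wider, and without KO replicate 1 they were 377, with 29 wider. Of the 781, 162 narrowed by at least 10 points (20.7%, against 30.7% of the others), while 0 were wider by as much, against 0.379% of the others. The median domain had 9.61 points less cover in KO, with quartiles of -21.52 and -3.2 points. In 208 domains mean KO cover was at least 90%, in 72 it was under 50% and in 17 under 25%. The scatter of WT against KO cover shows 675 of the 781 domains under the line of equal cover, 152 of them by more than 25 points.

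**Figure D2:**
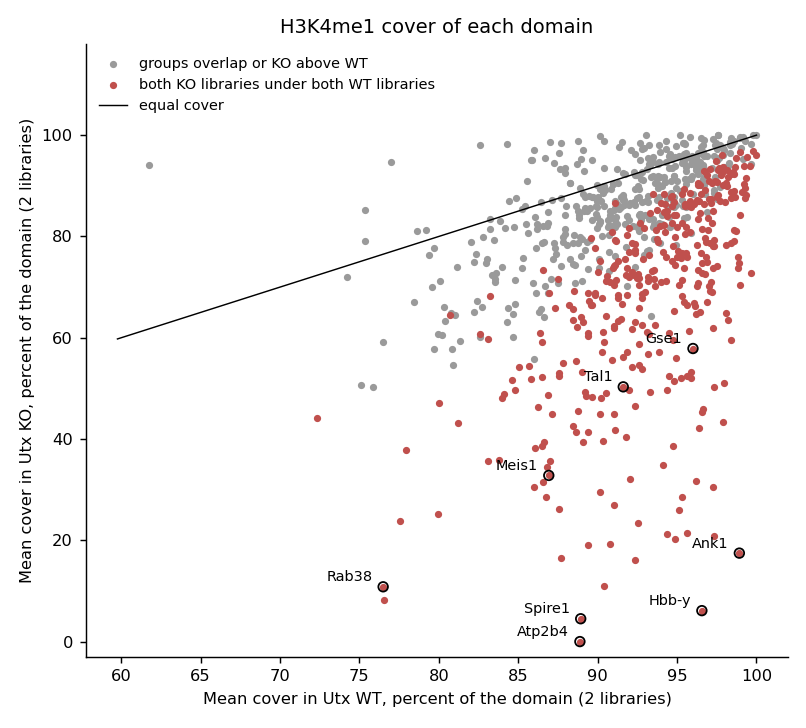
Mean H3K4me1 cover of each of the 781 domains in Utx KO (vertical, percent of the domain, 2 libraries) against Utx WT (horizontal, 2 libraries). Red points are the 362 narrowed domains, and the ringed Atp2b4, Spire1, Hbb-y, Rab38 and Ank1 domains lie near the bottom, with mean KO cover of 0% to 17.47%.

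Complete loss was rare. Only 1 domain had no island in either KO library, against 16.5% of the other shared regions, and a wide region has more chances to keep some island. Along width, the share with none was 24.1% in the narrower 50% of shared regions, 10.05% in those ranked from 10 to 50%, 1.73% in the next 8% and 0.128% in the domains. KO cover over WT cover ran the same way, 0.657, 0.737, 0.798 and 0.847. The log2 ratio of cover in domains to cover in other regions was 0.23 and 0.05 in WT and 0.40 and 0.30 in KO. It was higher in both KO libraries, by 0.21. Against the next 8% of regions the same ratio overlapped between genotypes.

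The lost domain lay at Atp2b4, a plasma membrane calcium pump (chr1:133739201-133766199). Cover was 97.0% and 80.7% in WT and 0% in both KO libraries, while PU.1 islands numbered 2, 2 and 1 in WT and 2, 2 and 3 in KO. At Hbb-y, the embryonic beta-globin gene next to the locus control region, a domain of 26199 bp (chr7:103853001-103879199) was covered at 93.1% and 100% in WT and at 0% and 12.2% in KO. Its PU.1 islands numbered 2, 4 and 3 in WT and 4 in each KO library. Spire1, an actin nucleator, had 79.5% and 98.4% in WT and 4.5% in each KO library, where 1 island of 2199 bp was left. At E130308A19Rik cover was 56.2% and 96.9% in WT and 5.0% and 11.2% in KO. Rab38, a small GTPase of pigment granules, gave 53.7% and 99.3% against 9.0% and 12.7%, and St6galnac3, a sialyltransferase, 88.1% and 92.7% against 6.6% and 15.2%. The Rab38 domain had 8 and 9 ATAC peaks in KO and 8 and 10 in WT with the empty vector, and fewer PU.1 islands in every KO library (2, 4 and 4 against 8, 5 and 6).

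Fragmentation, meaning more islands in each KO library than in each WT library, was called in 108 domains (13.8%), against 1.45% of the other regions and 7.94% of the next 8%. Narrow regions can hold few islands, so this share moves with width. Fewer islands in KO were called in 8 domains, against 16.8% of the others. Without WT replicate 2 the balance turned, with 113 domains fragmented and 233 with fewer islands. Fragmented domains numbered 485 without WT replicate 1 and 260 without KO replicate 2, where 10 and 17 had fewer islands, and without KO replicate 1 they numbered 151 against 17. Of the 104 domains that were 1 island in both WT libraries, 40 were broken into several in both KO libraries and 38 stayed 1 island in both. That is 5.12% of all domains, against 1.27% of the others and 5.98% of the next 8%. The largest gains in island number were at Galnt2, an enzyme of O-glycosylation (4 and 1 in WT, 9 and 6 in KO), at Ptpn11, Rpl6 and Hectd4 (5 and 3, then 8 and 9), St7 (4 and 1, then 6 and 8), Pip4k2a, a lipid kinase (4 and 1, then 7 and 6), and Tbc1d8 (5 and 1, then 7 and 7). Smad3, a mediator of TGF-beta signalling (3 and 1, then 7 and 5), tied with the last pair of these. Ptpn11 encodes the phosphatase SHP2 of cytokine signalling. At Gse1 the 5 and 4 islands of WT became 8 and 6, and cover was 94.5% and 97.5% against 49.6% and 66.2%.

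Of 6 domains at erythroid genes 5 were narrowed, with a median difference of -24.42 points, beside 46.4% narrowed and a median of -9.61 over all domains. Ank1, the ankyrin of the red cell membrane skeleton (chr8:23026201-23063399), was 1 island in each WT library, with 97.8% and 100% cover, and 2 and 3 islands with 11.3% and 23.6% in KO. Epb41, another protein of that skeleton, had 92.6% and 99.5% in WT and 51.5% and 82.2% in KO, in 5 islands in each KO library. Bcl11a, the repressor of fetal globin, had 92.6% and 100% against 53.1% and 88.4%. Car2, carbonic anhydrase 2, had 91.9% and 95.3% against 52.0% and 88.5%. In those 3 domains KO replicate 1 lay far below KO replicate 2. Zfpm1, the GATA cofactor FOG1, kept 89.5% and 98.4% against 99.6% in each WT library. Nfe2 had 79.3% and 85.7% in KO, overlapping the 80.2% and 100% of WT. PU.1 islands in the Ank1 domain numbered 4 in each WT library and 4, 3 and 3 in KO.

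Of the 5 ETS family domains 0 were narrowed, and their median difference was -2.46 points. At Spi1 (chr2:91075601-91115199) KO cover was 97.0% and 100%, not below the 93.9% and 97.0% of WT, and each KO library held it as 1 island where WT replicate 1 had 3. Etv6 had 88.8% and 99.1% in KO, Erg 93.5% and 97.8% against 93.9% and 98.6% in WT, Fli1 84.3% and 94.8% against 90.5% and 99.3%, and Elf1 83.1% and 88.0% against 81.9% and 97.1%. In all 5 the genotypes overlapped. Whether the ETS and erythroid lists differ was not tested.

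**Figure D3:**
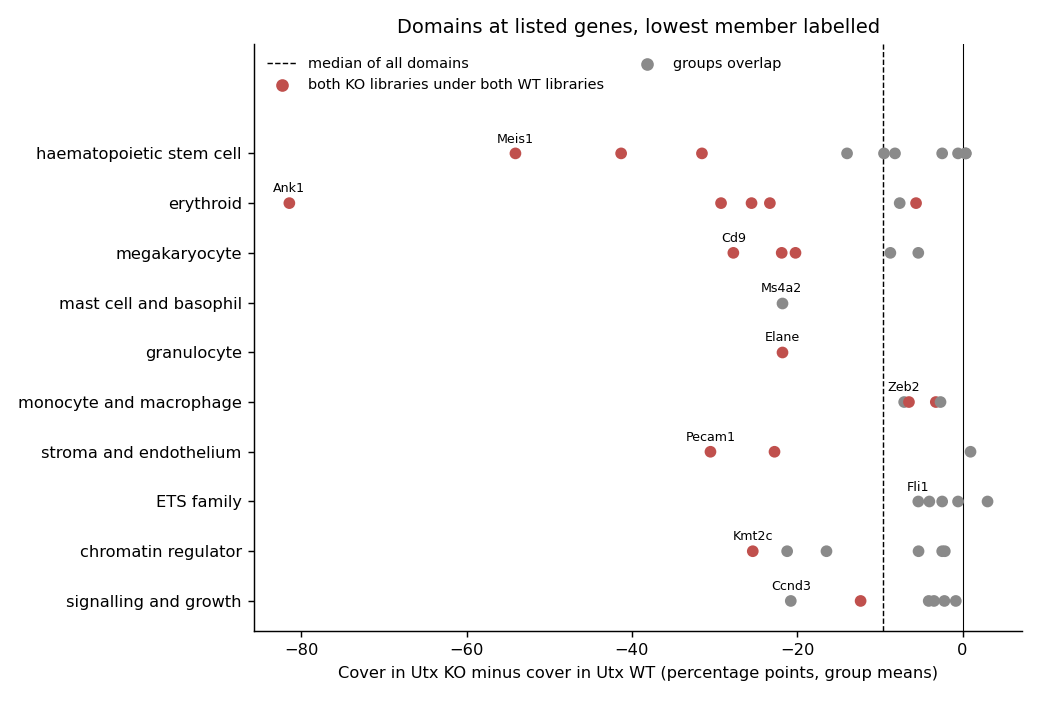
Mean H3K4me1 cover in Utx KO minus Utx WT (percentage points) for each domain that overlaps a gene of a list, with 1 point per domain and the lowest member of each list labelled. Red points are narrowed domains and the dashed line is the median of all 781 domains, -9.61. The 5 ETS family points lie right of that line, and 5 of the 6 erythroid points are red.

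Stem cell genes were split. Of their 10 domains 3 were narrowed. Meis1, a homeodomain factor (chr11:18940001-18978999), had 73.8% and 100% cover in WT and 33.3% and 32.3% in KO, in 3 islands in each KO library. Its PU.1 islands were 5, 4 and 4 in WT and 3, 3 and 5 in KO, and its ATAC peaks with the empty vector 5 and 6 against 5 and 5, so both overlapped. Tal1 had 88.8% and 94.4% in WT against 39.1% and 61.5%, and Kit, the stem cell factor receptor, 92.4% and 100% against 45.6% and 83.7%. The domain at Hoxa9 and Hoxa10 had 97.1% and 100% against 98.6% and 99.3%, and the 3 Runx1 domains, Erg, Etv6 and Msi2 overlapped too. One Runx1 domain of 48199 bp was a single island in all 4 libraries, with 98.3% and 100% in WT and 99.2% and 100% in KO.

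Of 5 megakaryocyte domains 3 were narrowed, at Gp9, a subunit of the platelet von Willebrand factor receptor, Cd9 and Gfi1b, with a list median of -20.21 points. Gfi1b, a repressor of both erythroid and megakaryocyte cells, had 97.7% in WT replicate 2, a mean of 96.87% in WT, and 56.2% and 93.7% in KO. The shared granulocyte domain of Elane and Prtn3, proteases of neutrophil granules, had 93.7% and 99.5% against 58.9% and 90.5%. Monocyte and macrophage domains had small differences, with a median of -4.855 points and 2 of 4 narrowed (Itgam and Ccr2, at 90.6% to 96.1% in KO). Ms4a2, the mast cell receptor subunit, had 59.4% and 100% in WT and 63.1% and 52.5% in KO. Kmt2c, which encodes the MLL3 methyltransferase, had 76.5% and 96.2% against 56.8% and 65.1%, the 1 narrowed domain of the 6 at chromatin regulators. Among signalling genes 1 of 6 domains was narrowed, at Cdk6, with 94.5% and 100% against 77.0% and 92.8%. Pecam1, an adhesion molecule of endothelium and of blood cells, had 84.4% and 100% against 54.6% and 68.8%.

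**Figure D4:**
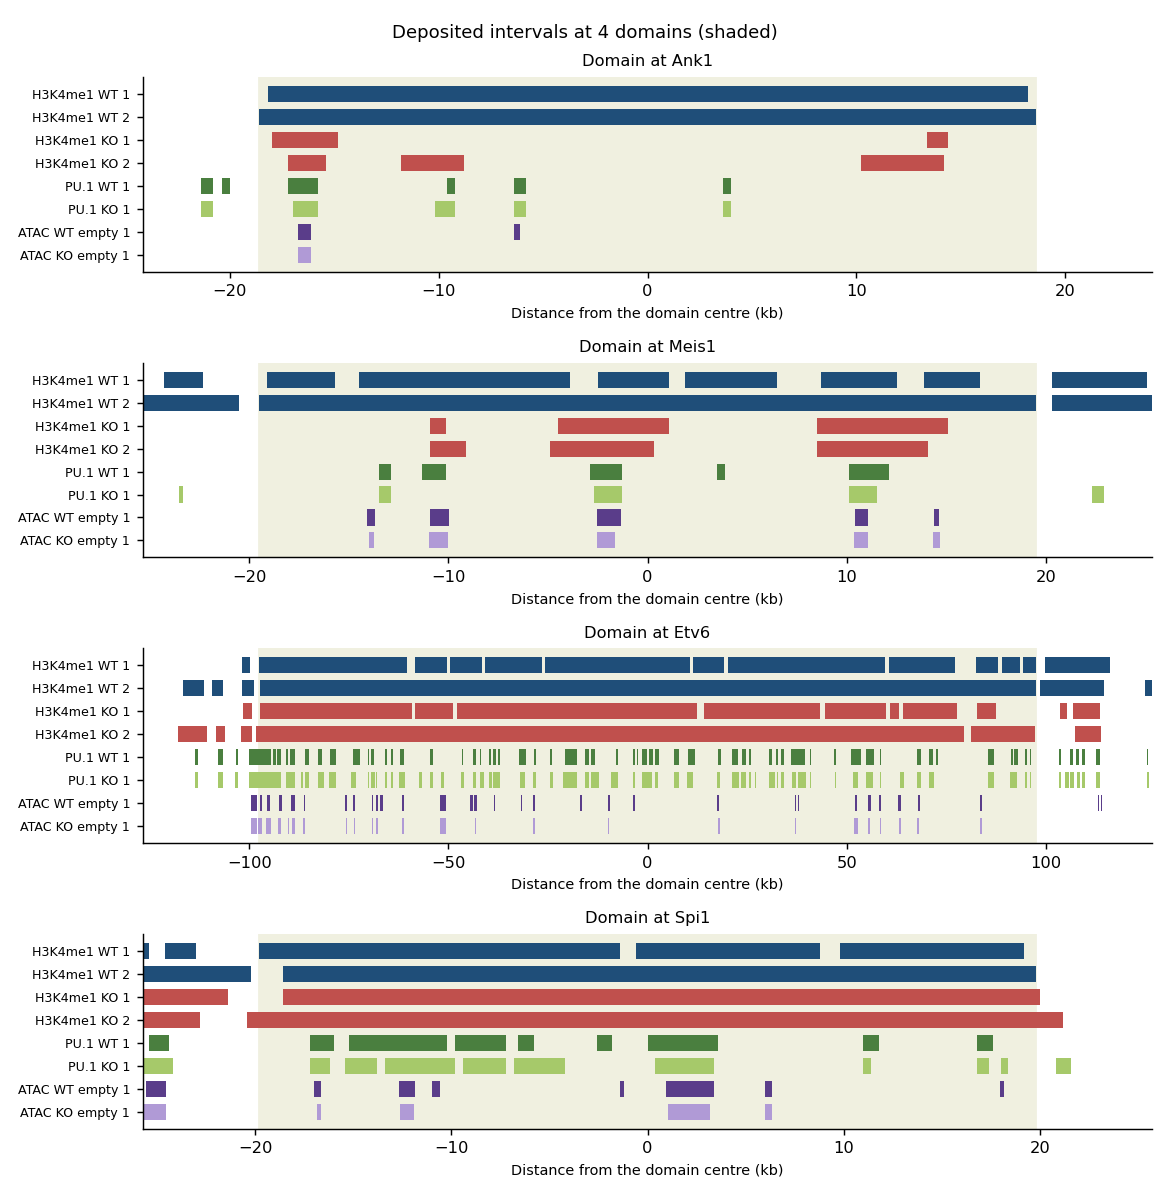
Deposited intervals around 4 domains (shaded), plotted as distance from the domain centre in kb, for the 4 H3K4me1 libraries and replicate 1 of PU.1 and of empty-vector ATAC in Utx WT and KO. At Ank1 and Meis1 the KO islands are short blocks, with cover of 11.3% and 23.6%, and 33.3% and 32.3%, while at Etv6 and Spi1 they span most of the domain.

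PU.1 islands were about as dense in the domains as in other marked regions. In WT there were 2.33, 2.36 and 2.29 per 10 kb and in KO 2.51, 2.22 and 2.43, so the groups overlapped (2.33 ± 0.036 and 2.39 ± 0.15, SD, n = 3 each, exact permutation p = 0.5). Their difference of 0.060 was 0.143 without KO replicate 2 and -0.0010 without KO replicate 1. Relative to other shared regions of the same library, density in the domains was 0.977 times as high, a mean log2 ratio of -0.034, below 0 in 6 of 6 libraries (two-sided exact sign-flip permutation test, p = 0.03125, the smallest possible). Against the next widest 8% the direction turned, with a mean log2 ratio of 0.044, above 0 in 6 of 6 libraries (p = 0.03125, exact sign-flip permutation). The share of each list's islands that lay in domains was 4.98%, 5.06% and 5.09% in WT and 4.50%, 4.94% and 4.63% in KO. All KO libraries were lower, by 0.35 points (two-sided exact permutation test, p = 0.1, the smallest that 3 against 3 can give). Adjusted over the 17 permutation tests of PU.1 and ATAC library values it was 0.515, and so it was for every test of that family that reached its smallest p. KO replicates 1 and 3 also had the longest lists, and with lists trimmed to equal length the difference was -0.054 points (exact permutation p = 0.7).

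Few domains separated the genotypes in PU.1 number. It was lower in every KO library in 35 domains (4.48%), against 1.79% of the other regions, and higher in 49 (6.27%), against 2.33%. With lists trimmed to equal length the balance turned, to 60 lower and 39 higher. A wider region holds more islands and has fewer ties. The lower count was 56 without WT replicate 3 and 87 without KO replicate 1, and the higher count 132 without KO replicate 2, 89 without WT replicate 1, 83 without WT replicate 2 and 75 without KO replicate 3. Etv6 held the most islands, 57, 48 and 49 in WT and 56, 52 and 55 in KO, all overlapping. Next came Adgrg1, Adgrg3 and Drc7 (35, 33 and 33, then 35, 26 and 31), Cmip (31, 31 and 30, then 33, 27 and 33), Diras2 and Syk (29, 27 and 25, then 33, 25 and 29) and Ankrd11 (26, 25 and 28, then 27, 22 and 27). In all of these WT and KO overlapped. Irf8, a partner of PU.1 in monocyte development, had 23, 23 and 20 islands in WT and 24, 22 and 24 in KO over 67799 bp, but 0 or 1 ATAC peak in each of the 12 ATAC libraries.

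Within the domains, the stretches that lost H3K4me1 were poor in PU.1 and in open chromatin. Of 25.3 Mb of domain covered in both WT libraries, 77.4% stayed covered in both KO libraries and 8.98% was uncovered in both, in 1341 stretches with a median of 1000 bp. PU.1 islands numbered 2.88 ± 0.053 per 10 kb of kept bases and 1.02 ± 0.047 per 10 kb of lost bases in WT (SD, n = 3). In KO the values were 2.99 ± 0.15 and 0.978 ± 0.15 (SD, n = 3). Kept bases were 2.96-fold denser over the 6 libraries, in 6 of 6 (exact sign-flip permutation, p = 0.03125, the smallest possible). ATAC peaks were 6.82-fold denser in kept bases, in 12 of 12 libraries (p = 0.03125, exact sign-flip permutation over 6 means). Each of the 6 means averages the libraries of 1 set, genotype and replicate number, which need not share an animal or culture. This contrast was set up after the data were seen. The WT and KO H3K4me1 lists set the kept and lost bases, and the same stretches were counted in each library. The p-values thus measure only how steadily the libraries repeat the difference. No other regions were set beside the domains here. The difference was already there in WT: empty-vector ATAC of Utx WT had 1.92 and 1.86 peaks per 10 kb of kept bases and 0.441 and 0.414 per 10 kb of lost bases. PU.1 density of the lost bases overlapped between WT and KO.

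Open chromatin in the domains was sparser in Utx KO. With the empty vector there were 1.47 and 1.44 ATAC peaks per 10 kb of domain in WT and 1.06 and 1.07 in KO. The groups did not overlap (1.45 ± 0.024 and 1.07 ± 0.0066, SD, n = 2 each, exact permutation p = 0.333, the smallest possible). The KO lists were shorter as a whole, with 39380 and 39925 autosomal peaks against 49696 and 49704. The share of each list that lay in domains was also lower, at 8.05% and 8.01% against 8.82% and 8.62% (exact permutation p = 0.333). It was lower in KO in the next widest 8% of regions too, at 13.5% and 13.6% against 14.3% and 14.0%. In all other shared regions it was 58.4% and 58.5% against 59.9% and 59.0%. Density there was 1.01 and 1.03 per 10 kb in KO against 1.31 and 1.29 in WT. Relative to other marked regions of the same library, the log2 ratio of density was 0.17 and 0.16 in WT and 0.08 and 0.07 in KO, a difference of -0.0933 (exact permutation p = 0.333). Against the next widest 8% of regions the difference in this ratio was -0.0542. With lists trimmed to equal length by peak width the difference in density was -0.139 per 10 kb, still without overlap (exact permutation p = 0.333).

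**Figure D5:**
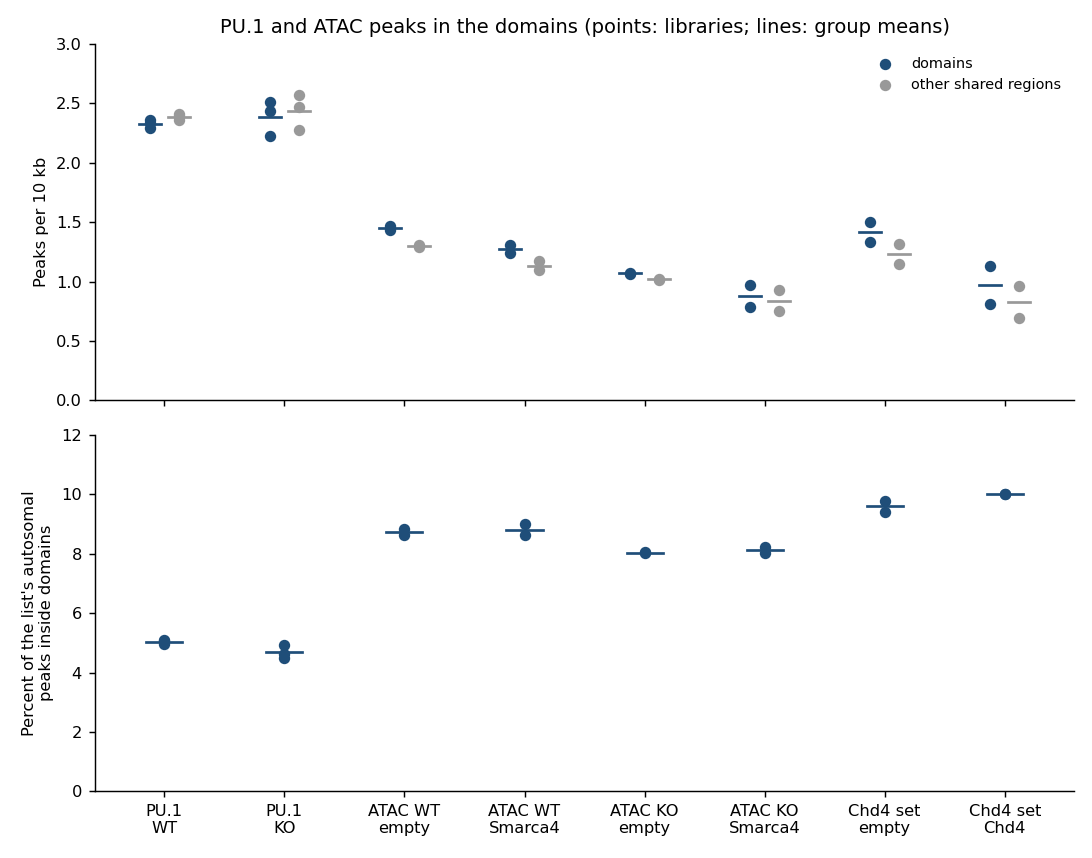
Top, PU.1 and ATAC peaks per 10 kb of the 781 domains (blue) and of the other shared regions (grey) in each library (points) with group means (lines). Bottom, the percent of each list's autosomal peaks that lay in domains. Empty-vector ATAC density was 1.47 and 1.44 in Utx WT and 1.06 and 1.07 in Utx KO, and the PU.1 groups overlap.

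ATAC peak number was lower in both KO libraries than in both WT libraries in 397 domains (50.8%). The share was 9.2% in the other regions and 25.5% in the next 8%. A wider region holds more peaks and has fewer ties, so this share moves with width. A higher number was called in 10 domains, against 0.88% of the others. The 10 became 19 to 26 when any 1 of the 4 libraries was left out. With equal list lengths the counts were 194 and 54. The lower ATAC number was called in 52.8% of the 362 narrowed domains and in 49.2% of the 419 others. The largest difference was at Cmip, with 27 and 30 peaks in WT and 13 and 12 in KO. Zmiz1, a transcriptional coactivator, had 20 and 20 against 9 and 12, Cbfa2t3, the corepressor ETO2 of erythroid and stem cells, 15 and 16 against 8 and 7, and Litaf 14 and 13 against 5 and 7. At Cbfa2t3 PU.1 islands were more in every KO library (18, 15 and 17 in WT, 21, 21 and 19 in KO), and H3K4me1 cover overlapped (96.7% and 100% against 95.1% and 97.8%). More peaks in KO were seen at Plec, the linker protein plectin (7 and 5, then 9 and 8), at a domain with no gene whose nearest is Cxcr4, a chemokine receptor (0 and 0, then 2 and 2), and at Rnf43 and Supt4a (4 and 4, then 6 and 6). The Cxcr4 domain was also fuller in H3K4me1, at 98.1% and 99.6% in KO against 80.8% and 100% in WT, which overlap.

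The gRNA against Smarca4 gave fewer ATAC peaks in the domains in either genotype, but in step with the shorter lists. In Utx WT there were 1.24 and 1.30 peaks per 10 kb with the gRNA, under the 1.47 and 1.44 of the empty vector, and in Utx KO 0.969 and 0.783, under 1.06 and 1.07 (exact permutation p = 0.333 each, the smallest possible). The share of the list in domains overlapped between guides in both genotypes (p = 0.667 each, exact permutation), and the sign of the difference turned without gRNA replicate 1 in either genotype and without empty replicate 2 in WT. It was 9.01% and 8.62% with the gRNA in WT and 8.24% and 8.02% in KO. The effect of the gRNA on density was -0.18 per 10 kb in WT and -0.19 in KO, a difference of -0.011 (exact permutation p = 1). The effect in KO was -0.286 without gRNA replicate 1 and -0.100 without gRNA replicate 2. With lists trimmed to equal length the differences in density were -0.0186 and -0.0201 per 10 kb (exact permutation p = 0.667 each).

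Per domain, the Smarca4 gRNA gave fewer peaks in 191 domains in WT (24.5%), against 4.74% of the other regions and 12.2% of the next 8%. In KO it did so in 177 (22.7%), against 4.6% and 11.7%. A wider region holds more peaks and has fewer ties, so these shares move with width. The log2 ratio of density in domains to other regions differed between guides by only 0.00097 in WT and -0.012 in KO. More peaks were called in 7 domains in WT, against 0.742% of the others, and in 1 in KO, against 0.282%. These became 36 to 47 in WT and 6 to 43 in KO when any 1 library was left out. With equal list lengths 66 domains had fewer and 54 more in WT, and 54 fewer and 33 more in KO. The 191 became 308 without empty replicate 2 and 315 without gRNA replicate 2, and the 177 became 277 without empty replicate 1 and 421 without gRNA replicate 1. In WT the largest differences were at Cbfa2t3 (15 and 16 peaks with the empty vector, 9 and 11 with the gRNA), Mybbp1a and Spns2 (11 and 10, then 6 and 5), Ugcg, the glucosylceramide synthase (11 and 10, then 6 and 6), and the domain of Med16, R3hdm4, Kiss1r and Arid3a (10 and 7, then 4 and 4). Osbpl8, a lipid transfer protein, had more, 7 and 7 against 10 and 9. Tspan14 (11 and 10, then 10 and 15) and Fndc3b (1 and 0, then 2 and 3) were the next by mean, tied with Vps13d and Dhrs3 at a mean gain of 2.0 peaks, and the Tspan14 values overlapped.

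With the Chd4 gRNA open chromatin in the domains was sparser than with its empty vector. Peaks per 10 kb of domain were 1.50 and 1.33 with the empty vector and 1.13 and 0.816 with the gRNA (1.42 ± 0.12 and 0.973 ± 0.22, SD, n = 2 each, exact permutation p = 0.333, the smallest possible). The difference of -0.446 per 10 kb was -0.604 without gRNA replicate 1 and -0.288 without gRNA replicate 2. The gRNA lists were short, with 33682 and 24268 autosomal peaks against 47591 and 40579, and a larger share of each lay in domains, 10.002% and 10.01% against 9.42% and 9.79% (exact permutation p = 0.333). That difference of 0.401 points was 0.217 without empty replicate 1 and 0.586 without empty replicate 2. The share was also larger with the gRNA in the next widest 8% of regions, at 16.8% and 17.0% against 15.9% and 16.5%. In all other shared regions it was 65.3% and 65.5% against 62.9% and 64.4%. With lists trimmed to equal length by width the share in domains was lower with the gRNA, a difference of -0.462 points (exact permutation p = 0.333). With the upper 50% of each list the difference was -0.909 points. Density in domains was lower by 0.0376 per 10 kb on trimmed lists.

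Fewer peaks with the Chd4 gRNA were called in 359 domains (46.0%), against 9.75% of the other regions and 26.4% of the next 8%. More were called in 2, against 0.319% of the others. The share with fewer peaks again moves with width, as a wider region has fewer ties. The log2 ratio of density in domains to other regions differed between guides by 0.019, and against the next widest 8% by 0.0017. The 359 became 584 without gRNA replicate 1, the longer list of the gRNA group, and the 2 became 35 without gRNA replicate 2. With equal list lengths 70 domains had fewer peaks and 44 more. Etv6 led, with 36 and 31 peaks with the empty vector and 25 and 15 with the gRNA, followed by Cmip (25 and 21, then 18 and 10), Ptpre, a tyrosine phosphatase (18 and 16, then 11 and 8), and Mbnl1 (14 and 12, then 8 and 4). These are also among the wider domains, which hold more peaks. The largest mean gain, at Mroh2a and Hjurp, came from 1 library (7 and 7, then 6 and 14). Akna had 7 and 8 peaks and then 9 and 9, and the domain at Anp32a 3 and 3 and then 5 and 4.

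Over all 12 ATAC libraries the domains held more ATAC peaks per 10 kb than other marked regions, by 1.11-fold. The mean log2 ratio was 0.15 ± 0.069 (SD, the same 6 means by set, genotype and number). It was above 0 in 12 of 12 libraries (two-sided exact sign-flip permutation test over the 6 means, p = 0.03125, the smallest possible). The highest ratios were in the Chd4 set, up to 0.23, and the lowest with the Smarca4 gRNA in Utx KO, down to 0.05. The direction rests on counting a peak by its midpoint. When any overlap of 1 bp counted, which credits narrow regions with peaks that cross their edges, the mean log2 ratio was -0.0048 (exact sign-flip permutation p = 0.875). Against the next widest 8% of regions it was 0.11, above 0 in 12 of 12 libraries (p = 0.03125, exact sign-flip permutation).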

How the data were processed

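ChIP-seq gave 10 of the peak lists used and ATAC-seq 12, and the 2 input libraries entered no comparison. The submitters' processing notes name SICER, MACS2, Bowtie2 and Bowtie and the build mm10, with no version and no role, and only MACS2 and Bowtie for the Chd4 libraries. Each island of the ChIP lists, per the authors' deposited columns, is a run of 200 bp windows with a whole-number score. It is read here as island reads, a role that no source states. The deposited ATAC lists give intervals only, so their depth is unknown and width ranked their peaks. A deeper library can give more and wider intervals, so each density is given beside the share of the list.

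Autosomal intervals were used as deposited. A peak belonged to a domain by its midpoint. Exact permutation tests, two-sided, compared PU.1 and ATAC library values, with Benjamini-Hochberg adjustment over 17 tests. H3K4me1 had been assigned tests too, but WT H3K4me1 chose the domains, so its values are given untested. Sign-flip tests of domains against other regions were adjusted over their own family of 2, which left both at 0.03125. Genes came from RefSeq (GRCm38.p6), by span overlap, and 16457 genes matched a promoter entry. Named genes were those of the 8 widest domains, the 6 with the lowest KO cover and the 5 with the largest rise in islands. They also came from the 5 with most PU.1 islands and the 4 largest falls and 3 largest rises in ATAC number per comparison. For gene lists the plan was up to 4 members of each, widest domain first. The text names further members outside that plan, among them Ank1, Meis1 and Spi1. Members and lists were chosen with earlier results of these data known. Alternatives were other width thresholds, list trimming, stricter lists, overlap rules, held-out selections and left-out libraries. Per-domain counts with left-out libraries or trimmed lists were added after the data were seen. The calls were tested on simulated data with planted changes, where each unchanged domain was a single island with small shifts of an end. The spread between the real WT libraries was not simulated, so this gives no rate of false calls for the data. The software was pandas 2.3.3 and numpy 2.4.6 under Python 3.11.15, with matplotlib 3.10.9 for figures and scipy 1.17.1.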

Additional observations from a re-analysis of the deposited data

How the results depend on the processing

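Cover of the domains was lower in Utx KO under 1% and 5% width thresholds, gaps of up to 1 kb merged, trimmed lists and the upper 50% of each list, but not in regions chosen on the KO libraries, where the KO minus WT difference was 3.64 points in cover, -0.337 islands per domain, 14.1 points in single-island domains and 2400 bp in the median widest island. In regions chosen on WT replicate 2 alone, the islands per domain differed by -0.361 and single-island domains by 4.25 points. Trimming turned the PU.1 density difference to -0.0244 per 10 kb and the share of ATAC peaks in domains to -0.135 (Smarca4 gRNA in WT), -0.206 (in KO) and -0.462 points (Chd4 gRNA). The upper 50% of each list gave -0.0300, -0.242 and -0.909 points. Counting any overlap turned the ATAC density ratio to -0.0048. Against the next widest 8% of regions the PU.1 density ratio was 0.044, its KO minus WT change -0.012 and the change with Smarca4 gRNA in WT -0.0097 (log2). The cause of these turns was not tested.

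With libraries left out one at a time, the KO minus WT difference ranged from -20.2 to -7.99 points in cover, -0.277 to 1.43 islands per domain, -66.8 to 0.512 points in single-island domains, -13400 to -200 bp in the widest island and -0.0010 to 0.143 PU.1 islands per 10 kb. ATAC density ranged from -0.286 to -0.100 per 10 kb (Smarca4 gRNA in KO) and -0.604 to -0.288 (Chd4 gRNA). The share of the ATAC list ranged from -0.0969 to 0.293 points (Smarca4 gRNA in WT), -0.0141 to 0.209 points (in KO) and 0.217 to 0.586 points (Chd4 gRNA). Counts of domains ranged from 368 to 706 narrowed, 4 to 172 wider, 113 to 485 fragmented and 10 to 233 with fewer islands. PU.1 was lower in 40 to 87 and higher in 60 to 132. ATAC was higher in 19 to 26 (Utx KO), lower in 260 to 315 and higher in 36 to 47 (Smarca4 gRNA in WT), lower in 198 to 421 and higher in 6 to 43 (in KO), and lower in 372 to 584 and higher in 4 to 35 (Chd4 gRNA). Leaving out a library loosens each call. With trimmed lists PU.1 was lower in 60 domains and higher in 39, and ATAC was lower in 194 and higher in 54 (Utx KO), 66 and 54 (Smarca4 gRNA in WT), 54 and 33 (in KO) and 70 and 44 (Chd4 gRNA). A fall of at least 10 points left 162 narrowed and 0 wider.

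Same-numbered libraries deviated together only weakly, with correlations over domains of 0.0034 to 0.18. In PU.1, Utx KO against WT, the number 1 correlated better with another number. Guide and empty libraries of 1 number correlated at 0.043 and 0.019 (Smarca4 gRNA in WT and KO) and 0.18 (Chd4 gRNA). With 2 libraries per group the other number gives the negative of the same value, so it adds nothing. Whether guide and empty libraries of 1 number share a culture stays unsettled, and the main tests did not pair them. With the number as a replicate block, cover differed by -14.1 points, 553 domains were narrowed, 10 wider and 199 fragmented, PU.1 was higher in 100, and ATAC was higher in 2 with the Smarca4 gRNA in KO. Other block counts stayed within 1.5 times. ATAC depth is unknown, and 2 against 2 libraries cannot pass 0.05.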
